A study of Mus musculus with 8 samples.

Results

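Antibody heavy chains, the J chain that links antibodies into polymers and the receptor that carries those polymers across the airway epithelium were followed in tracheas of old and young mice. The genes were picked by name in the array annotation. That choice was made with earlier results of these data known, so the counts below describe these genes and are no independent test. Every probe set with a symbol starting with Igh (Ighmbp2, which is no antibody gene, left out) or equal to Jchain, Igj or Pigr was taken, which gave 26 of 45037 probe sets, with the symbols of 7 genes. A probe set is a group of short probes for the same transcript. Igha, the IgA heavy chain, had 3 probe sets of its own. Ighm, the IgM heavy chain, had 11, and 1 more was shared with the variable segment Ighv1-72. Ighg3, the heavy chain of the IgG3 subclass, had 4. A further 3 carried the symbols Ighv14-2, Ighg3 and Ighm together and were kept as a set of several classes. Ighv14-2 alone had 1, Jchain had 1 and Pigr had 2. The annotation gave no probe set for IgD, IgE or another IgG subclass, and these were not analysed here.

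RNA came from the distal trachea and carina, the fork where the trachea divides into the main bronchi. The animals were 4 old (14 month) and 4 young (2 month) C57Bl/6 females, an inbred strain with no transgene or treatment named in the labels. Each mouse had its own Affymetrix Mouse Genome 430 2.0 array, which reports each probe set as a linear signal in arbitrary units. By the numbering of the labels, mice 1, 2, 5 and 6 are old and mice 3, 4, 7 and 8 are young. The labels do not state housing, and the authors' methods place imported C57Bl/6 mice in the same barrier room.

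Plasma cells, the antibody-secreting descendants of B cells, make dimeric IgA in mucosal tissue by joining a pair of IgA molecules through the J chain. IgM is the class a B cell makes first, and in its secreted pentamer it also holds the J chain, whereas IgG does not. Pigr, the polymeric immunoglobulin receptor, sits on the basolateral face of airway epithelial cells, binds J chain-containing IgA and IgM, and carries them to the lumen. There its outer part is cleaved off and stays on the antibody as secretory component. A heavy chain transcript joins a variable region, which differs between B cell clones, to a constant region that sets the class, and the annotation does not say which of these a probe set reads.

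In old tracheas the IgA heavy chain, the J chain and some probe sets of the IgM heavy chain had many times the signal of young tracheas, while Pigr overlapped between the ages. The IgM probe sets differed widely, between 1.44-fold and 30.0-fold. All old mice exceeded all young mice in 3 of 3 Igha probe sets, in 8 of 12 IgM probe sets and in Jchain. The same was true of 0 of 4 Ighg3 probe sets and 0 of 2 Pigr probe sets. Over the 26 probe sets, 13 had all old mice above all young mice and 0 had all below. Of all 45037 probe sets, 4.05% lay above in this way and 3.75% below. The log2 fold change of old minus young was above 0 in 25 of the 26, with a median of 1.48, beside a median of -0.0062 over all probe sets.

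The statistics were limited by 4 mice per age and by the wide spread between mice. With limma and the Benjamini-Hochberg adjustment over all probe sets, 0 of the 26 had an adjusted p under 0.05, and 12 of the 26 had an unadjusted p under 0.05. By the adjusted threshold, 0.0533% of all probe sets lay higher in old mice and 0.0178% lower, and 11.2% had an unadjusted p under 0.05 in either direction. With a robust variance prior that follows the signal level, limma called 3 of the 26 higher, as it did 0.697% of all probe sets, and an ordinary analysis of variance called 0. The methods' own threshold, a fold over 2 and p under 0.05 before adjustment, was met by 11 of the 26, all higher in old mice, against 1.19% of all probe sets higher and 0.802% lower. In a separate fit of 18193 genes, each by its brightest probe set, Ighm (adjusted p = 0.0286) and Jchain (adjusted p = 0.0343) passed, while Igha (0.114), Ighg3 (0.394) and Pigr (0.44) did not. The brightest probe set was picked over all 8 mice, and for Ighm the high old mice decided that pick. In young mice alone 1427870_x_at was the brightest Ighm probe set, with an adjusted p of 0.524 in the fit of all probe sets. Adjusted p-values given below for probe sets are those over all 45037.

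**Figure D1:**
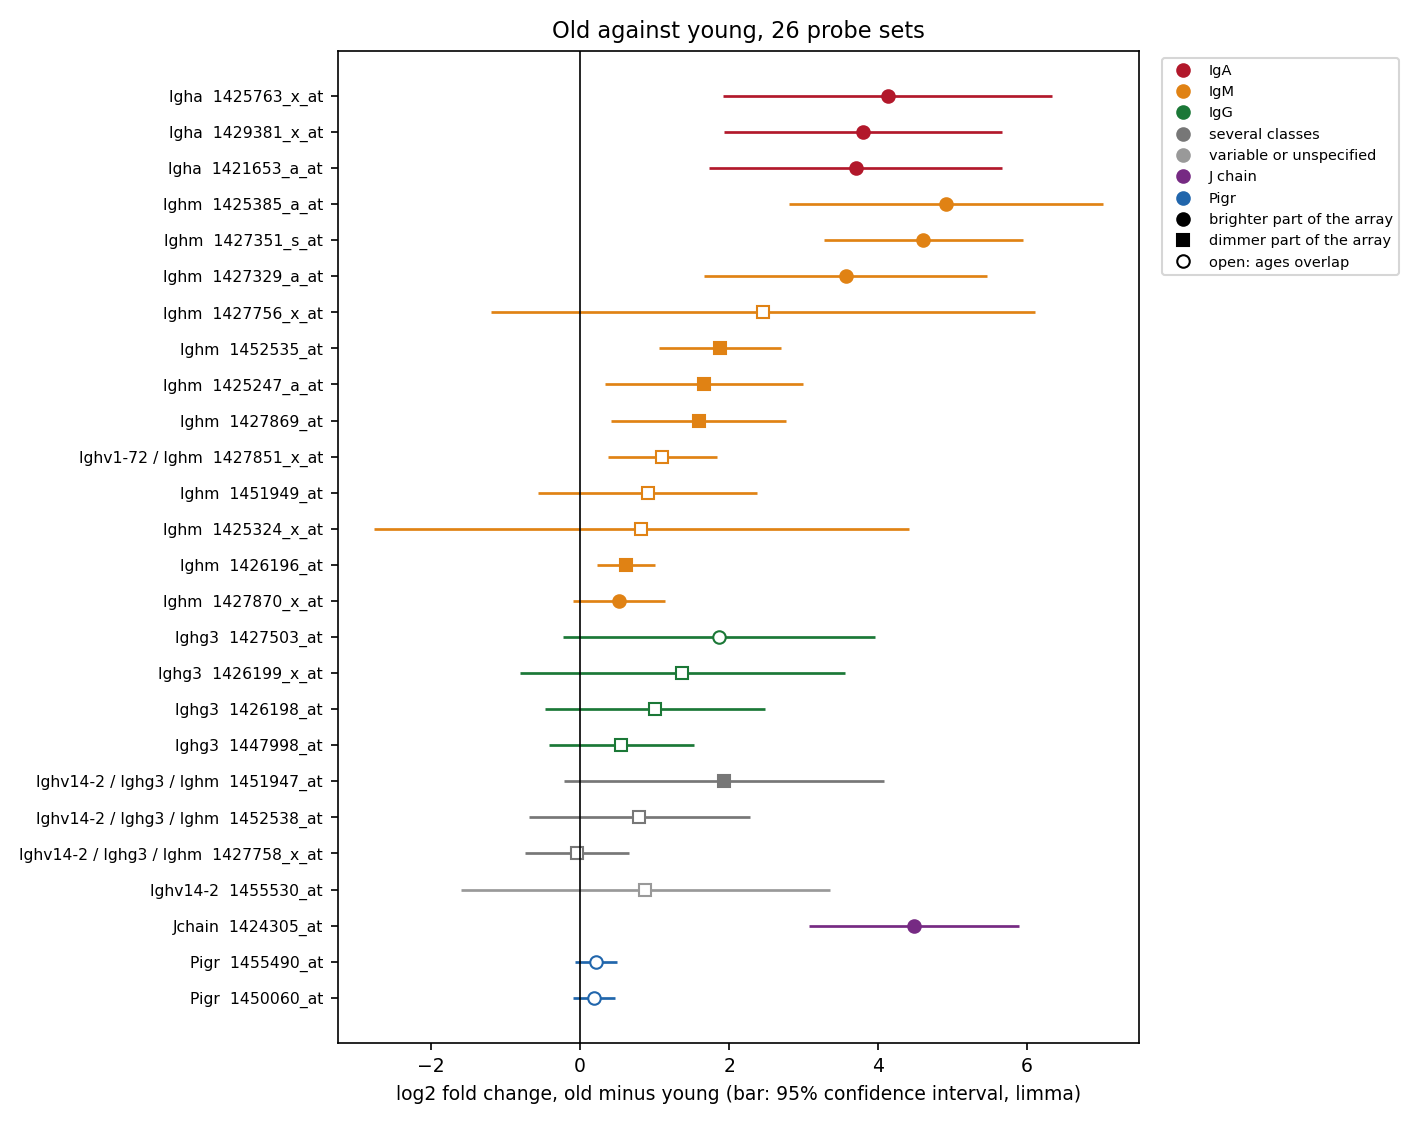
Log2 fold change of old minus young mice for each of the 26 probe sets, coloured by antibody class, with bars for the 95% confidence interval from limma. Filled symbols had separated ages, old above young, squares lay in the dimmer part of the array, and the 3 Igha probe sets, the 3 largest Ighm values and Jchain lie between 3.57 and 4.91 while Pigr lies at 0.19 and 0.21.

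Before the single genes, the arrays themselves were compared. The deposited signals share a scale, with a trimmed mean of 497 to 498 on every array, so general brightness could not be compared. Markers of the tissue were present at both ages, with a mean of 28761 in old and 29859 in young mice for Scgb1a1 of secretory cells, 2500.3 and 2594 for Foxj1 of ciliated cells, 2041 and 1645 for Krt5 of basal cells, and 2184 and 2495 for Col2a1 of cartilage. Within the cartilage list members went both ways. Acan had a log2 fold change of -0.56 and Col9a1 of -1.01, whereas Comp had 0.66, with adjusted p-values of 0.15 to 0.188. Old mouse 6 stood apart in genes of other cells. Rag1, the recombinase of developing lymphocytes, was at 429 in this mouse, at 2.19 to 46.2 in the other old mice and at 0.83 to 2.80 in young mice. Alas2, the heme synthesis enzyme of red cell precursors, was at 1084, at 111 to 240.4 in the other old mice and at 28.3 to 127 in young mice. Sftpc, the surfactant protein of alveolar type II cells, was at 2986, at 453 to 593 in the other old mice and at 539 to 1218 in young mice. Of the heavy chain probe sets, the value without this mouse is given for those in which it was the highest old mouse. In tissue RNA of this kind, a change in the number of cells of a type and a change in RNA per cell cannot be told apart.

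IgA heavy chain signal was high in each old mouse and variable in young mice. The brightest Igha probe set, 1421653_a_at, read 12218, 15652, 17013 and 14501 in old mice 1, 2, 5 and 6, against 932, 2738, 194 and 3364 in young mice 3, 4, 7 and 8. All old mice were within 1.39-fold of each other, whereas the highest young mouse was 17.3-fold above the lowest, and even that mouse stayed well below every old mouse. The mean was 14846 ± 2031 in old mice and 1807 ± 1490 in young mice (SD, n = 4 each). This is a log2 fold change of 3.70 (SE 0.85, 95% confidence interval 1.73 to 5.67), a 13.0-fold difference of geometric means with an interval of 3.31 to 50.9 (limma adjusted p = 0.187).

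The other 2 Igha probe sets gave the same picture. For 1425763_x_at the signals were 10142, 16728, 15138 and 12398 in the old mice and 726, 1996, 99.95 and 2355 in the young mice. For 1429381_x_at they were 6259, 13357, 9629 and 7648 in the old mice and 562, 1312, 123 and 1802 in the young mice. Their log2 fold changes were 4.13 (SE 0.95) and 3.80 (SE 0.80), with adjusted p-values of 0.187 and 0.158. In all 3 probe sets the young mice fell in a single order, with mouse 8 highest, then 4, then 3, and mouse 7 lowest. These 3 share a target gene, so their agreement is no replication of the age difference. Without young mouse 7 the log2 fold change of 1421653_a_at was 2.85 (SE 0.44, adjusted p = 0.128), and without old mouse 6 it was 3.71.

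The J chain gene, whose product closes IgA dimers and IgM pentamers, gave a similar separation. Jchain (1424305_at) read 3735, 8120.2, 6840.1 and 14016 in old mice 1, 2, 5 and 6, and 261, 481, 127 and 730.3 in young mice 3, 4, 7 and 8. Old mouse 6 was the highest and old mouse 1 the lowest of its age, and that lowest old mouse was still above every young mouse. The mean was 8178 ± 4306 in old mice and 399.9 ± 264 in young mice (SD, n = 4 each). Its log2 fold change was 4.48 (SE 0.61, 95% confidence interval 3.07 to 5.89), or 22.4-fold with an interval of 8.41 to 59.5 (adjusted p = 0.0679). Without old mouse 6 it was 4.17 (adjusted p = 0.127). The young mice stood in the order seen for Igha, mouse 8 above 4, 3 and 7.

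**Figure D2:**
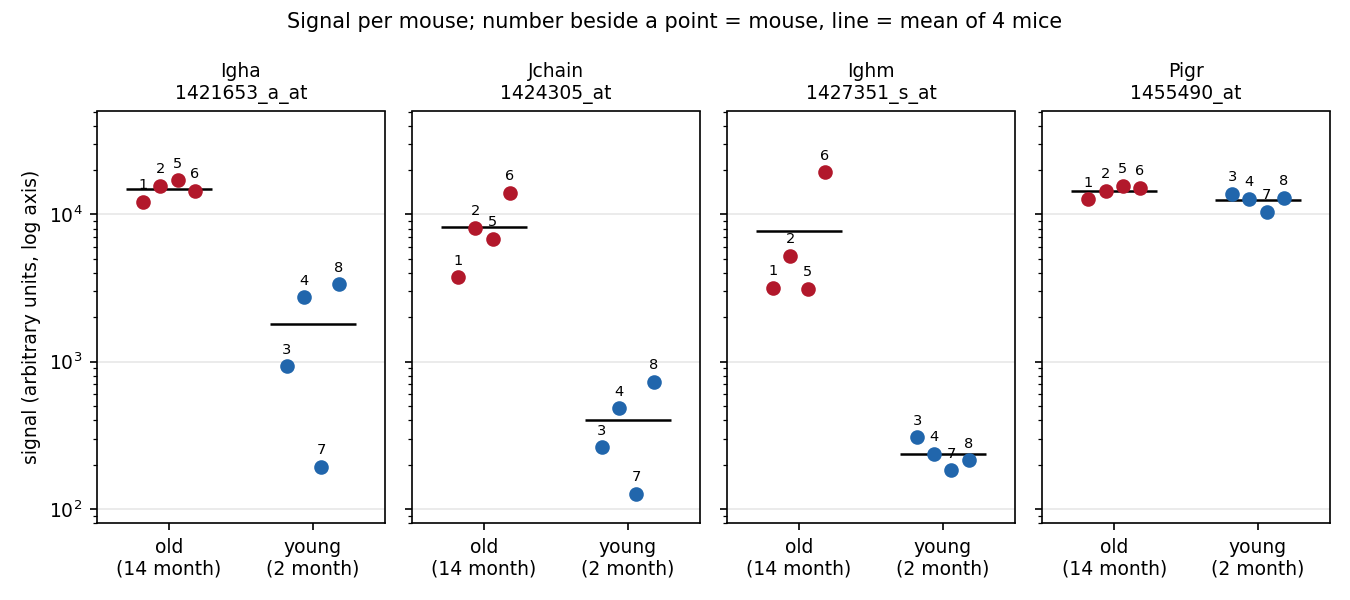
The brightest probe set of Igha, Jchain, Ighm and Pigr, drawn mouse by mouse with signal (arbitrary units) on a log axis, old mice left and young mice right, and a line at the mean of 4 mice. Old and young points are apart for Igha, Jchain and Ighm and overlap for Pigr, which lies between 10443 and 15628 in all 8 mice.

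IgM heavy chain probe sets differed widely among themselves. The brightest, 1427351_s_at, read 3165, 5234, 3126 and 19346 in old mice 1, 2, 5 and 6, against 308, 237, 182 and 214 in young mice 3, 4, 7 and 8. Young mice lay within 1.69-fold of each other and old mice within 6.19-fold, mouse 6 being the high one. The mean was 7718 ± 7814 in old mice and 235 ± 53.2 in young mice (SD, n = 4 each), and the log2 fold change was 4.61 (SE 0.57, 95% confidence interval 3.27 to 5.94), or 24.4-fold with an interval of 9.67 to 61.4 (adjusted p = 0.0531). Without old mouse 6 the log2 fold change was 4.01 (SE 0.25, adjusted p = 0.0231). The suffix _s_at marks a probe set whose probes match more than a single transcript.

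A second Ighm probe set rested more on mouse 6. For 1427329_a_at the old mice read 1376, 2415, 1258 and 18152, against 292, 309, 221 and 191 in young mice. Its log2 fold change was 3.57 (SE 0.82, adjusted p = 0.187), and without old mouse 6 it was 2.69 (SE 0.28, adjusted p = 0.0707). Another had a different mouse on top. For 1425385_a_at the signals were 581, 618, 10289 and 736 in old mice 1, 2, 5 and 6 and 53.6, 46.0, 34.7 and 39.2 in young mice. Old mouse 5, which was the lowest old mouse of 1427351_s_at, was the highest here by far. The log2 fold change was 4.91 (SE 0.90, 95% confidence interval 2.80 to 7.01, adjusted p = 0.13), and without old mouse 5 it was 3.91 (SE 0.18, adjusted p = 0.00945).

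The brightest remaining Ighm probe set, 1427870_x_at, showed a small difference. It read 364, 554, 351 and 819.8 in old mice, against 322, 349.5, 347 and 349 in young mice. Old mice 1 and 5 were only just above the young mice, and the log2 fold change was 0.52 (SE 0.27, 95% confidence interval -0.10 to 1.14, adjusted p = 0.524), and 0.28 without old mouse 6. The suffix _x_at marks probes that may bind other transcripts. Of the dimmer probe sets, 1452535_at read 440.0, 150, 143 and 248 in old mice against 60.7, 68.4, 52.7 and 58.6 in young mice, with a log2 fold change of 1.88 (SE 0.35, adjusted p = 0.133). Here old mouse 1 was the highest.

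The other 7 IgM probe sets were dim. Complete separation of the ages was found in 1425247_a_at, 1427869_at and 1426196_at, with log2 fold changes of 1.67, 1.59 and 0.62. The ages overlapped in 1427756_x_at (2.45, SE 1.57), 1427851_x_at, shared with Ighv1-72 (1.10, SE 0.31), 1451949_at (0.91, SE 0.63) and 1425324_x_at (0.82, SE 1.54). Over the 12 IgM probe sets the log2 fold change ran between 0.52 and 4.91 with a median of 1.63, and 7 met the methods' threshold. Without old mouse 6 the log2 fold change was 1.25 for 1425247_a_at, 0.56 for 1426196_at, 1.57 for 1427756_x_at and -0.047 for 1425324_x_at. Old mice stood in the order 6, 2, 1, 5 in 1427351_s_at, 1427329_a_at, 1427870_x_at, 1425247_a_at, 1425324_x_at and 1427756_x_at.

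IgG heavy chain signal was weak. Only 1 of the 4 Ighg3 probe sets, 1427503_at, was in the brighter part of the array, and it read 409, 116, 126 and 1928 in old mice 1, 2, 5 and 6, against 86.6, 114, 142 and 47.5 in young mice. Old mice 1 and 6 were above all young mice, whereas old mice 2 and 5 lay within their range. This gave a log2 fold change of 1.86 (SE 0.90, 95% confidence interval -0.24 to 3.96, adjusted p = 0.501), and without old mouse 6 it was 1.01 (adjusted p = 0.594). The dim probe set 1447998_at read 62.5, 57.6, 62.4 and 81.8 in old mice and 39.1, 49.8, 21.3 and 96.1 in young mice (log2 fold change 0.55, SE 0.42, adjusted p = 0.674, and 0.45 without old mouse 6). The last 2 had signals of at most 26.5 in any mouse. As IgG3 was the only IgG subclass named on the array, these values say nothing of the others.

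Probe sets with symbols of several classes were dim too. In 1451947_at old mice read 45.9, 71.6, 105 and 49.8, against 38.1, 31.3, 31.6 and 2.12 in young mice, all old above all young (log2 fold change 1.94, SE 0.92, adjusted p = 0.497). In 1452538_at and 1427758_x_at the ages overlapped, with log2 fold changes of 0.80 (SE 0.64) and -0.04 (SE 0.30). Ighv14-2, a variable segment, gave 31.7, 2.92, 26.5 and 118.6 in old mice against 12.7, 30.1, 7.88 and 8.45 in young mice (log2 fold change 0.88, SE 1.06, adjusted p = 0.811). Without old mouse 6 it was 0.094. These signals do not separate a class.

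Pigr was among the bright transcripts at both ages. Its brighter probe set, 1455490_at, read 12671, 14446, 15628 and 15130 in old mice 1, 2, 5 and 6, and 13869, 12799, 10443 and 13022 in young mice 3, 4, 7 and 8. The ages overlapped, since young mouse 3 was above old mouse 1. The mean was 14469 ± 1293 in old mice and 12533 ± 1468 in young mice (SD, n = 4 each). The log2 fold change was 0.21 (SE 0.12, 95% confidence interval -0.068 to 0.49), which is 1.16-fold with an interval of 0.954 to 1.40 (adjusted p = 0.567, exact two-sided permutation p = 0.114).

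The other Pigr probe set, 1450060_at, read 11053, 12612, 13609 and 14198 in old mice, against 12933, 11317, 9757 and 11249 in young mice. Its log2 fold change was 0.19 (SE 0.12, 95% confidence interval -0.099 to 0.47, adjusted p = 0.624). These intervals cover only the spread of signals between mice, and within them a signal difference of up to 1.4-fold remained possible. Markers of the epithelium that carries the receptor had a median log2 fold change of -0.066 over 13 secretory cell markers, -0.013 over 9 ciliated cell markers and 0.17 over 8 basal cell markers, and 0 were called in each list. The basal markers went both ways. Krt14 (2.21), Dapl1 (0.39), Krt5 (0.31) and Krt15 (0.29) had all old mice above all young mice and Snai2 (-0.27) had all below, with adjusted p-values of 0.111 to 0.277.

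To set the regulatory regions of the secreted chain and its transporter side by side, the 150 bases before the RefSeq start site of Jchain and Pigr are given, 5′ to 3′ along each gene, from GRCm38.p6. They are chr5:88527898-88528047 on the minus strand for Jchain and chr1:130826534-130826683 on the plus strand for Pigr. Capitals mark the E-box CACGTG.
Jchain: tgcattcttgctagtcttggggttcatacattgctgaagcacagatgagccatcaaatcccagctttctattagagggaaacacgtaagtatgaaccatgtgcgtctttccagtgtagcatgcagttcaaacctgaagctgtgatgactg
Pigr: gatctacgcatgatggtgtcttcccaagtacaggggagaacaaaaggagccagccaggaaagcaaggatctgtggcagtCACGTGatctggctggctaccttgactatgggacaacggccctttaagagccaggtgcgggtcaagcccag

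The Pigr window held an E-box that starts 71 bases before the start site, and the Jchain window held none. In human cells an E-box of the PIGR promoter is bound by the upstream stimulatory factors. Both strands were searched for this motif, for the octamer ATGCAAAT known from antibody gene promoters and for the interferon-stimulated element, which is GAAA, any 2 bases and GAAA again. Neither of these last motifs was found in the windows. Of 32851 mouse promoters with a window of the same length, 4.3% held the E-box, 0.998% the octamer and 1.59% the interferon-stimulated element. The motifs were chosen after the signals had been seen, and a match is a description of the letters. The genes of the factors that bind the E-box, Usf1 and Usf2, had log2 fold changes of -0.0022 (adjusted p = 0.996) and -0.12 (adjusted p = 0.626) in the fit of all genes.

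Whether the members changed unequally was tested on the brightest probe set of each gene, by the difference of log2 signals within a mouse. That choice is made over all 8 mice. Igha, Jchain and Ighm exceeded Pigr in log2 fold change by 3.49 (SE 0.88), 4.27 (SE 0.60) and 4.40 (SE 0.60). Each had an exact two-sided permutation p of 0.0286, the smallest that 70 divisions of 8 mice allow, and 0.0571 after adjustment over the 6 pairs tested. In each of these pairs the values of old and young mice did not overlap. Among the antibody chains no difference passed with these probe sets. Igha minus Ighm was -0.91 (SE 1.10, exact permutation p = 0.429), Igha minus Jchain was -0.79 (SE 0.55, exact permutation p = 0.2) and Ighm minus Jchain was 0.12 (SE 0.64, exact permutation p = 0.886). The results for Ighm depend on the probe set. With each gene's probe sets averaged, Igha minus Ighm was 1.73 (adjusted p = 0.206), Ighm minus Jchain was -2.34 (adjusted p = 0.0429) and Ighm minus Pigr was 1.94 (adjusted p = 0.0429, exact permutation tests). With the probe set brightest in young mice, a choice added after seeing the data, Igha minus Ighm was 3.18, Ighm minus Jchain was -3.96 (adjusted p = 0.0429 for both) and Ighm minus Pigr was 0.31 (adjusted p = 0.343, exact permutation tests). Igha and Jchain exceeded Pigr with each choice.

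**Figure D3:**
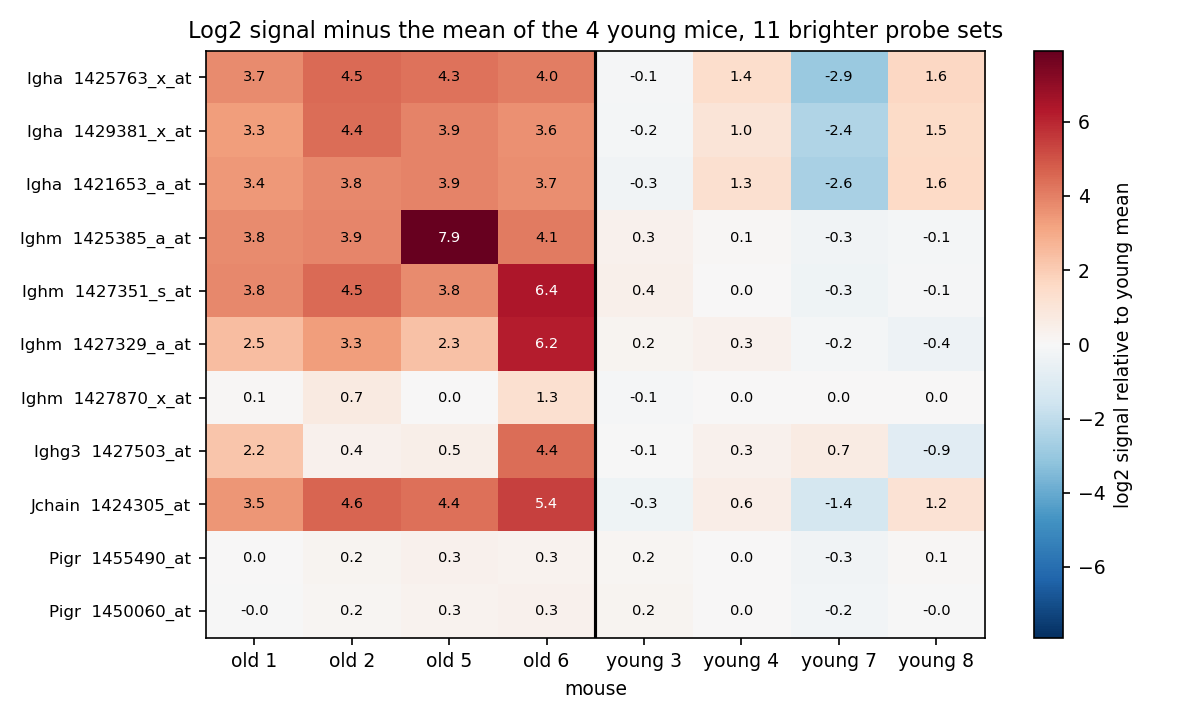
Log2 signal of the 11 probe sets in the brighter part of the array, each minus the mean of its 4 young mice, with old mice in the left columns and young mice in the right ones. The 3 Igha rows and Jchain share the low value of young mouse 7, old mouse 6 is high in Ighm 1427351_s_at (6.39), 1427329_a_at (6.19) and Ighg3 1427503_at (4.42), and old mouse 5 is high in Ighm 1425385_a_at (7.91).

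The spread over mice was not the same in every probe set. Among old mice the highest signal was 1.39-fold to 2.13-fold above the lowest in the Igha probe sets and 3.75-fold in Jchain. In the Ighm probe sets that range ran between 1.2-fold (1426196_at) and 113-fold (1425324_x_at). Among young mice it was 14.6-fold to 23.6-fold for Igha, 5.77-fold for Jchain and between 1.09-fold and 23.9-fold for Ighm. The 113-fold and 23.9-fold (1427756_x_at) ranges are from dim probe sets, with lowest signals of 1.86 and 1.51. In the 4 brighter Ighm probe sets the range was 2.34-fold to 17.7-fold among old mice and 1.09-fold to 1.69-fold among young mice. The difference in spread was not tested. Old mouse 6, with its high Rag1, Alas2 and Sftpc, was also the highest mouse in Jchain, 1427351_s_at and 1427329_a_at, and the part of those other cells in these values was not tested. It was not the highest in any Igha probe set. Leaving it out left 13 of 26 probe sets with separated ages and 11 that met the methods' threshold.

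The genes nearest to the antibody chains over the 8 mice were found by the root mean square distance of log2 signals, each taken relative to its own mean, among 11865 genes outside the immunoglobulins in the brighter part of the array. Jchain was the nearest gene to both Igha (distance 0.776) and Ighm (0.781), where the profiles of Igha and Ighm themselves had a root mean square of 2.18 and 2.43. Ccl20, a chemokine that draws B cells and dendritic cells through its receptor Ccr6, came next for Igha (0.885). It read 442, 794, 599 and 639 in old mice 1, 2, 5 and 6 and 122, 196, 44.4 and 243 in young mice 3, 4, 7 and 8. Its young mice stood in the order of the Igha signals, 8, 4, 3 and 7, and its log2 fold change was 2.26 (SE 0.51, adjusted p = 0.113 over all genes).

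Dmbt1, a secreted scavenger receptor of mucosal surfaces that binds IgA and bacteria, came first for Jchain (0.906) and was among the first 3 for Igha and Ighm. It read 1979, 2501, 3298 and 2284 in old mice and 158, 308, 199 and 214 in young mice, and rose by a log2 of 3.53 (SE 0.23, adjusted p = 0.00467 over all genes). The remaining names were Umod, S100a8, Nr4a1 and Ccn1, at distances between 1.26 and 1.41. All of them had higher means in old mice, and the measure favours genes with a large age difference, so the distances describe likeness over these 8 mice only.

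Genes of the cells that make antibody were examined as lists, in the fit of 18193 genes, where 0.368% of genes were called higher and 0.181% lower by adjusted p and 14.6% had an unadjusted p under 0.05. Of 16 plasma cell genes 15 were measured. At the adjusted threshold 0 were called, 6 had an unadjusted p under 0.05, all higher in old mice, and the median log2 fold change was 0.31 beside -0.0047 over all genes. In 6 of the 15 all old mice exceeded all young mice, as in 5.02% of all genes, and in 0 all fell below, as in 5.11%. Summed over the list, the signal was 22149 to 24572 in old mice and 18706 to 20634 in young mice, with the largest share from Xbp1, which the epithelium also expresses.

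Pou2af1, the coactivator that drives antibody gene transcription at octamer sites, read 144, 228, 232 and 402 in old mice and 67.4, 65.2, 41.8 and 69.3 in young mice (log2 fold change 1.98, SE 0.32, adjusted p = 0.0521). Old mouse 6 was again the highest, and without it the value was 1.72 (adjusted p = 0.0693). Other values came from Prdm1, the master regulator of plasma cell fate (1.16, adjusted p = 0.138), Tnfrsf17, the survival receptor BCMA (1.08, adjusted p = 0.108), and Mzb1, a chaperone of IgM and IgA assembly (0.87, adjusted p = 0.155). Creld2, an endoplasmic reticulum stress protein, had 0.53 (adjusted p = 0.0575). Sdc1 and Irf4, plasma cell genes that other cells express too, were at 0.10 and -0.05. Whether these values differ from those of the antibody chains was not tested.

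**Figure D4:**
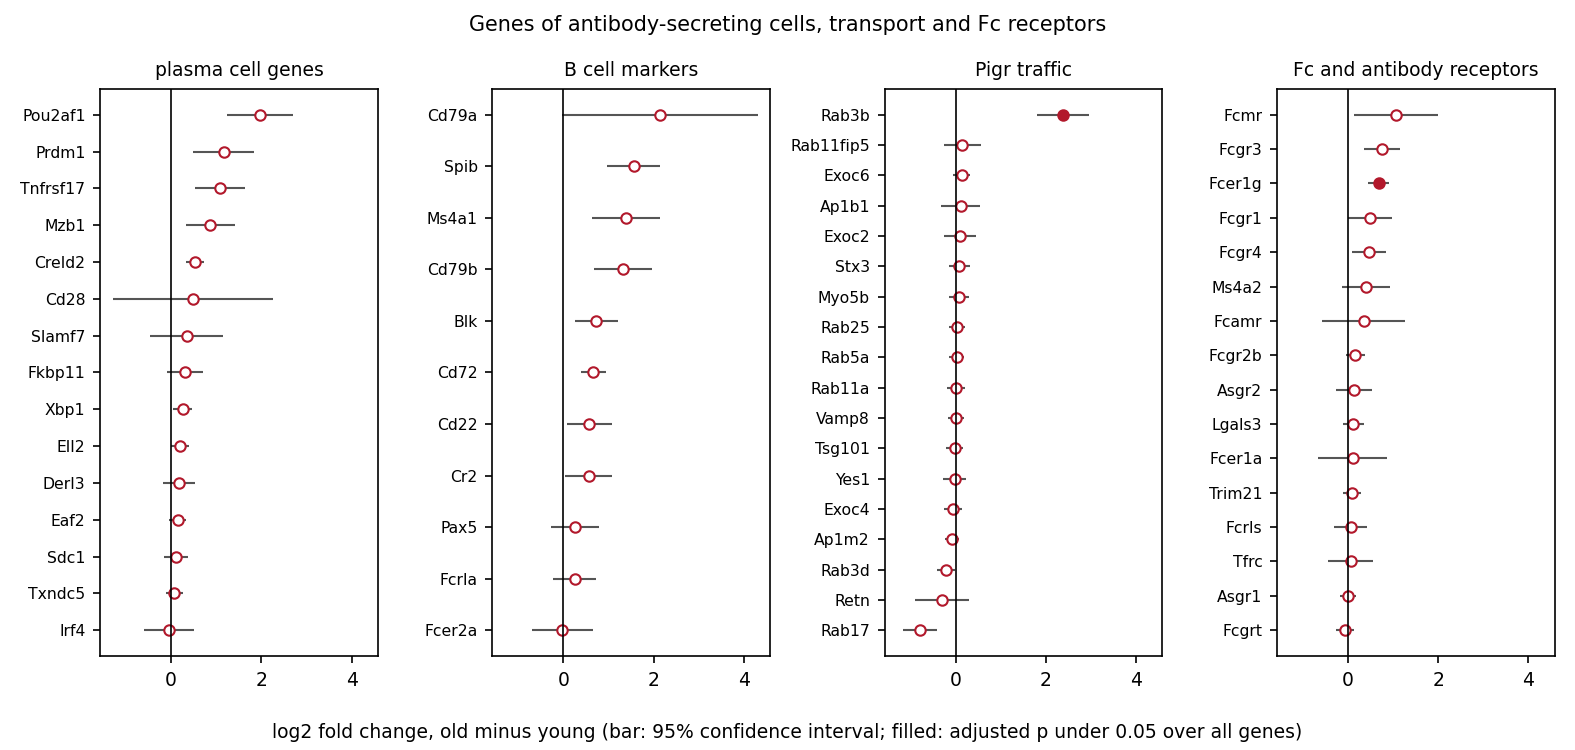
Log2 fold change of old minus young mice with 95% confidence intervals for plasma cell genes, B cell markers, genes of Pigr traffic (a list that also holds the hormone gene Retn) and Fc and antibody receptors. Filled points passed an adjusted p under 0.05 over all genes and are Rab3b (2.37) and Fcer1g (0.68), while most traffic genes lie close to 0.

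B cell markers were also counted. Of 11 measured, 0 were called, 7 had an unadjusted p under 0.05 and the median log2 fold change was 0.66. The summed signal was 1356 to 2171 in old mice and 829 to 995 in young mice, without overlap. Spib, a transcription factor of B cells, was at 1.56 (adjusted p = 0.0525), Cd79b of the B cell receptor at 1.32 (adjusted p = 0.0956), Ms4a1, which encodes CD20, at 1.38 (adjusted p = 0.118) and Cd72, a B cell coreceptor, at 0.67 (adjusted p = 0.0661).

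Of the 28 genes listed for IgA class switching and homing, 26 were measured and 1 was called. Vcam1, the endothelial ligand of the integrin on homing plasmablasts, read 1466, 1535, 1337 and 1514 in old mice and 952, 953, 767 and 757 in young mice, and rose by a log2 of 0.78 (SE 0.11, adjusted p = 0.0345). Tnfsf13b, the B cell survival factor BAFF, was at 0.84 (adjusted p = 0.076) and its receptor Tnfrsf13b at 0.77 (adjusted p = 0.153), both with all old mice above all young mice. Il21, a cytokine of T cell help, was at 1.63 (adjusted p = 0.207). Ccl28, the airway chemokine for IgA plasma cells, was at 0.097 (SE 0.34), and its receptor Ccr10 at 0.39 (SE 0.60). The list's median was 0.15.

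The machinery that moves Pigr through epithelial cells was mostly near 0, with a median of 0.014 over the 18 genes of its list. That list also held Retn (-0.30, adjusted p = 0.653), the gene of the secreted hormone resistin, which is no part of this machinery. Rab3b, a small GTPase that in cultured epithelial cells holds the receptor with its IgA before transcytosis, was the only gene called. It read 143, 93.1, 58.1 and 93.3 in old mice and 17.0, 17.3, 16.9 and 20.3 in young mice, and rose by a log2 of 2.37 (SE 0.25, adjusted p = 0.0192). Its signals were dim at both ages, below the median of 151 over all probe sets in every mouse. Rab17, a GTPase of transcytosis, had a mean of 384 in old and 669 in young mice, with all old mice below all young mice (log2 fold change -0.78, SE 0.16, adjusted p = 0.09). Rab11a and Rab25, of the recycling endosome, and Vamp8, of membrane fusion, differed by at most 0.033.

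Among 21 regulators of Pigr expression 0 were called and 4 had an unadjusted p under 0.05, where 14.6% of all genes did. That count is near the share of all genes, so the values below describe single genes only. Il4 was dim, at 41.2 to 91.4 in all mice. Il1b was at 0.85 (adjusted p = 0.103), Il4 at 0.51 (adjusted p = 0.172) and Tlr4 at 0.37 (adjusted p = 0.132), with all old above all young, and Traf3ip2, the adaptor of the IL-17 receptor, was at -0.20 (adjusted p = 0.286) with all old below. Of 16 Fc and antibody receptors 1 was called. Fcer1g, the signalling chain shared by several Fc receptors, rose by a log2 of 0.68 (SE 0.10, adjusted p = 0.0445). Fcgr3, which binds IgG, was at 0.75 (adjusted p = 0.116), Fcmr, which binds IgM, at 1.06 (adjusted p = 0.286), and Fcgrt, the neonatal receptor that carries IgG, at -0.062 (adjusted p = 0.795).

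Markers of other tissues that a dissection could include were given the same count, and 0 were called in each list. Among 7 oesophagus and skeletal muscle markers, Krt4 had all old mice above all young mice (log2 fold change 1.39, adjusted p = 0.0682). Tnnt3 of that list had all old mice below (-1.09, adjusted p = 0.106). In the thyroid and alveolar lists no gene had separated ages. Of 12 lymphoid stroma markers 7 were measured, and Ccl19, Ccl21a, Ccl21b, Ccl21c and Fdcsp were not. The summed signal of these 7 was 931 to 1380 in old mice and 579 to 698 in young mice, led by Cxcl13, the chemokine of B cell follicles (log2 fold change 1.18, adjusted p = 0.0673). Glycam1, Madcam1 and Chst4, which mark the high endothelial venules of lymph nodes, had signals of at most 5.44, 119 and 47.7 in any mouse and overlapped between the ages. Thymus markers summed to 452 to 1039.9 in old mice and 417 to 547 in young mice. Blood markers summed to 608 to 1658 in old mice and 466 to 704 in young mice, old mouse 6 being the highest in both lists. T cell markers summed to 2277 to 2742 in old mice and 1777 to 2317 in young mice. The largest share came from Thy1, with means of 1484 in old and 1284 in young mice and overlapping ages. Of 9 T cell markers measured, 9 had a log2 fold change above 0, with a median of 0.54, and 5 had an unadjusted p under 0.05. In 2 of them, Cd3d (adjusted p = 0.143) and Cd3g (adjusted p = 0.135), all old mice exceeded all young mice. The part of lymphoid tissue in the antibody signals was not tested.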

How the data were processed

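RNA of 4 old and 4 young tracheas was hybridised to Affymetrix arrays, 1 mouse each. The deposited values are linear intensities, 1 per probe set and array. The authors' methods name robust multichip analysis in Partek, which usually gives log2 values, whereas the deposited linear scale with its shared trimmed mean resembles single-array signals scaled to a target, so their making is unsettled. No detection call is given, so dim signals are the least certain, and the number of arrays limits the precision.

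Groups came from the labels. Signals were taken to log2, 64 control probe sets were left out (45101 less these gives 45037), and ages were compared with limma 3.58.1 in R 4.3.3, two-sided, with Benjamini-Hochberg adjustment. A gene took its brightest probe set carrying its symbol alone. Exact permutation tests took every division of the mice, in Python 3.11.15 with numpy 2.4.6. The steps were tested on simulated data. Symbols are from the platform annotation, and 7 of 7 member genes were found in RefSeq, which also gave promoters.

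All member probe sets could be named, with up to 4 genes of smallest p and any called gene per list, and the 5 nearest profiles of Igha, Ighm and Jchain. Usf1, Usf2, Mzb1, Xbp1, Sdc1, Irf4, Ccl28, Ccr10, Rab11a, Rab25, Vamp8, Retn, Fcgrt, Glycam1, Madcam1, Chst4, Thy1 and the markers that check the tissue or old mouse 6 fall outside this rule and were chosen with their values seen. Members and lists were chosen with earlier results of these data known. Alternatives were leaving out each mouse, other scalings, floors of 32 and 64, a block of mouse numbers, the brighter probe sets, other variance models, array weights, leaving out _x_at and _s_at probe sets, and gene means, and, added after seeing the data, the probe set brightest in young mice.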

Additional observations from a re-analysis of the deposited data

Results flagged for a closer look

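Of 52 groups of 4 mice examined, 5 had a mouse far from the other 3 by Dixon's ratio, the gap to the nearest mouse over the whole range of log2 signals. Chance flags about 1 in 20 groups, or 2.6 here. Old mouse 5 was far above the other old mice in Ighm 1425385_a_at, at 10289 beside 581 to 736 (ratio 0.917). The same mouse was above the others in 1427758_x_at, a dim probe set of several classes, at 17.1 beside 7.73 to 8.46 (ratio 0.887). Old mouse 2 was above in the dim Ighg3 1426199_x_at, at 26.5 beside 1.67 to 2.59 (ratio 0.842). Young mouse 3 was below the other young mice in Ighm 1427870_x_at, at 322 beside 347 to 349.5 (ratio 0.923). Young mouse 8 was below in 1451947_at, of several classes, at 2.12 beside 31.3 to 38.1 (ratio 0.932).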

How the results depend on the processing

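The direction of Igha, Ighm, Jchain and Pigr by their brightest probe sets held under each alternative run. Of all probe sets, limma called 24 higher and 8 lower by adjusted p. These counts were 131 and 101 with a floor of 32, 69 and 60 with a floor of 64, 7 and 0 with a block for mouse numbers up to 4 and from 5 on, 270 and 227 among the brighter probe sets, 314 and 241 with a trended and robust prior, 0 and 0 in an ordinary analysis of variance, and 15 and 4 without _x_at and _s_at probe sets. Among the 26, the count at this threshold was 0, and it was 2 with a floor of 32, 7 among the brighter probe sets and 3 with the trended prior. The 11 that met the methods' threshold became 7 without _x_at and _s_at probe sets, and the 13 with separated ages became 8 among the brighter ones, both from fewer probe sets. The brighter probe sets were picked over all 8 mice, so high old mice can bring a probe set in, as for 2 of the 11 members whose young mean was below the median, and those calls are no support. Igha (3.70) had an adjusted p of 0.0382 among the brighter probe sets. Jchain (4.48) had 0.0494 with a floor of 32, 0.00592 among the brighter and 0.0282 with the trended prior, and Ighm 1427351_s_at (4.61) had 0.0448, 0.00441 and 0.0164 in these settings.

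With each gene's probe sets averaged, Igha minus Ighm turned to 1.73 (adjusted p = 0.206 over 6 pairs) and Ighm minus Jchain to -2.34 (0.0429), while Igha, Ighm and Jchain minus Pigr were 3.68, 1.94 and 4.28 (each 0.0429, exact permutation tests). The median of the plasma cell genes was then 0.53. With the probe set brightest in young mice, added after seeing the data, Igha minus Ighm was 3.18, Ighm minus Jchain -3.96, Igha minus Pigr 3.49 and Jchain minus Pigr 4.27 (each 0.0429), and Ighm minus Pigr was 0.31 (0.343), since Ighm is then 1427870_x_at. Igha minus Pigr and Jchain minus Pigr have the same probe sets, differences and exact permutation p (0.0286) here as in the main test. Their adjusted p was 0.0571 there. It is lower here only because more of the 6 pairs had that smallest p, which adds no support. The dim Ighg3 1447998_at turned to -0.058 with a floor of 64, and 4 member probe sets at a floor of 32 and 6 at 64 lay at the floor in all mice. The cause of the changes in log2 values was not tested. Quantile normalization, centring of arrays and array weights changed no call and no count by over 1.5 times.

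Leaving out each mouse in turn gave 0 to 12 probe sets higher and 0 to 6 lower, and 0 to 1 of the 26 at an adjusted p under 0.05, 10 to 12 with the fold and unadjusted p, and 13 to 15 with separated ages. The log2 fold change was 2.85 to 4.22 for Igha, 4.02 to 4.87 for Jchain, 4.01 to 4.89 for Ighm and 0.13 to 0.27 for Pigr. Igha minus Ighm ran between -1.65 and -0.31, Igha minus Jchain between -1.18 and -0.47, Ighm minus Jchain between -0.30 and 0.47, Igha minus Pigr between 2.72 and 3.99, Ighm minus Pigr between 3.83 and 4.72 and Jchain minus Pigr between 3.90 and 4.64. Ighm minus Jchain was -0.16 without old mouse 6, -0.048 without young mouse 4 and -0.30 without young mouse 8. The dim Ighm 1425324_x_at turned to -0.047 without old mouse 6, beside 2.23 without old mouse 5, and 1427758_x_at to between 0.026 and 0.070 without any of mice 1, 2, 4, 6 and 7. Exact permutation p-values with 7 mice are not given here. The list medians were 0.15 to 0.40 for plasma cell genes and 0.15 to 0.25 for Fc receptors. No paired analysis was possible because the ages share no mouse number in the labels.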
